A study of Homo sapiens with 6 samples.

Results

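The S100 proteins are small calcium sensors found in vertebrates, each built around a pair of EF-hand loops. Most work as dimers. When calcium binds, a greasy surface opens and grips partners such as annexins, myosin or ezrin, and some family members are also exported and bind receptors such as AGER (RAGE) and TLR4 on other cells. In human DNA most of the genes sit together in band q21 of chromosome 1, beside the genes of the skin barrier, and several are used as markers of epithelial tumours and their spread. Here 10 S100 genes were picked by name from a table of 58735 genes: S100A2, S100A3, S100A4, S100A6, S100A10, S100A11, S100A13, S100A14 and S100A16 from that cluster, and S100P, which lies on chromosome 4, for contrast.

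RNA was sequenced from 6 libraries of a human colorectal cancer line, 3 labelled CNOT7 control and 3 labelled CNOT7 knockdown, all untreated. CNOT7 is a deadenylase of the CCR4-NOT complex, which shortens the poly(A) tails of mRNAs before their decay, and the comparison asks which mRNAs change when it is depleted. Knockdown cells carried a stably expressed short hairpin RNA from a lentiviral vector with green fluorescent protein and puromycin resistance. The labels do not say which hairpin each library carried, what the control cells expressed beyond the name shNc, or whether the 3 libraries of a group came from separate cultures, so the p-values measure only the spread between these samples, which may be technical. The labels name the line SW480, whereas the study's text names HCT116 for RNA sequencing.

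Total counts lay between 23788451 and 29104872 per library. CNOT7 was at 169, 191 and 176 CPM in the control libraries and at 43.4, 47.2 and 38.6 CPM in the knockdown libraries, so 24.1% was left. CPM is the count scaled to the size of its library, adjusted by TMM, which takes most genes as unchanged. The epithelial keratin genes KRT8, KRT18 and KRT19 and the adhesion gene EPCAM were present, whereas KRT20 and LGALS4, markers of mature colon cells, were at most at 0.326 CPM in all libraries. Of 9 epithelial markers, 7 were tested, and with CNOT7 knockdown VIL1 and CDH1 were higher (28.6%, against 13.3% of all genes tested) and KRT19 and KRT8 lower (28.6%, against 11.9%). Their summed level was 5554.3 to 5972.2 CPM in control and 5132.7 to 5683.6 CPM in knockdown libraries. VIM, the mesenchymal filament vimentin, was also present and lower (log2 fold change -0.24). Of 12 markers of other cells, 8 were too low to test. KRT5, a keratin of squamous epithelium, was the exception, at 2759 to 3589 CPM, while its partner KRT14 and the squamous regulator TP63 were close to 0. Over all 12 markers the summed level was 3379.1 to 3602.2 CPM in control and 2773.4 to 3018.9 CPM in knockdown libraries, and without KRT5 it was 11.4 to 13.4 and 13.7 to 14.9 CPM. KRT5 fell with CNOT7 knockdown (log2 fold change -0.26, standard error 0.0471), and its part in the results on the S100 genes was not tested.

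The leading S100 genes were abundant and fell together. With CNOT7 depleted, S100A10, S100A6, S100A2, S100A4 and S100A11 were lower, to between 68.8% and 79.6% of their control level. No S100 gene was called higher. Of the 10 genes, 9 had enough counts for the test, and 5 of these 9 (55.6%) were lower at an adjusted p-value under 0.05, against 11.9% of all 17574 genes tested. The genes were chosen with earlier results of these data known, so this share is a description and not a test. Summed over the 10 genes, the level was 1397 to 1488 CPM in the control libraries and 1101 to 1178 CPM in the knockdown libraries. In bulk RNA, fewer cells that express a gene and less RNA per cell cannot be told apart.

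Levels of different genes were compared per kilobase of exon, as CPM per kb over the 3 control libraries (mean ± SD, n = 3). S100A11 stood first with 680 ± 25.1 CPM per kb, followed by S100A4 with 301 ± 18.04. S100A10 with 185 ± 9.25 and S100A6 with 178 ± 18.9 overlapped in their ranges and cannot be ordered. Below them came S100A16 with 72.2 ± 1.04, S100A3 with 40.2 ± 2.40 and S100A2 with 27.3 ± 5.21 CPM per kb. S100A13 (7.76 ± 0.859), S100A14 (0.492 ± 0.140) and S100P (0.126 ± 0.0811) closed the order. Apart from S100A10 and S100A6, no neighbours in this order overlapped between the control libraries. The 4 genes at the top of it were all among those that fell. In the knockdown libraries S100A6 (130 ± 8.07) and S100A10 (128 ± 3.58) had changed places by less than their spread.

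**Figure D1:**
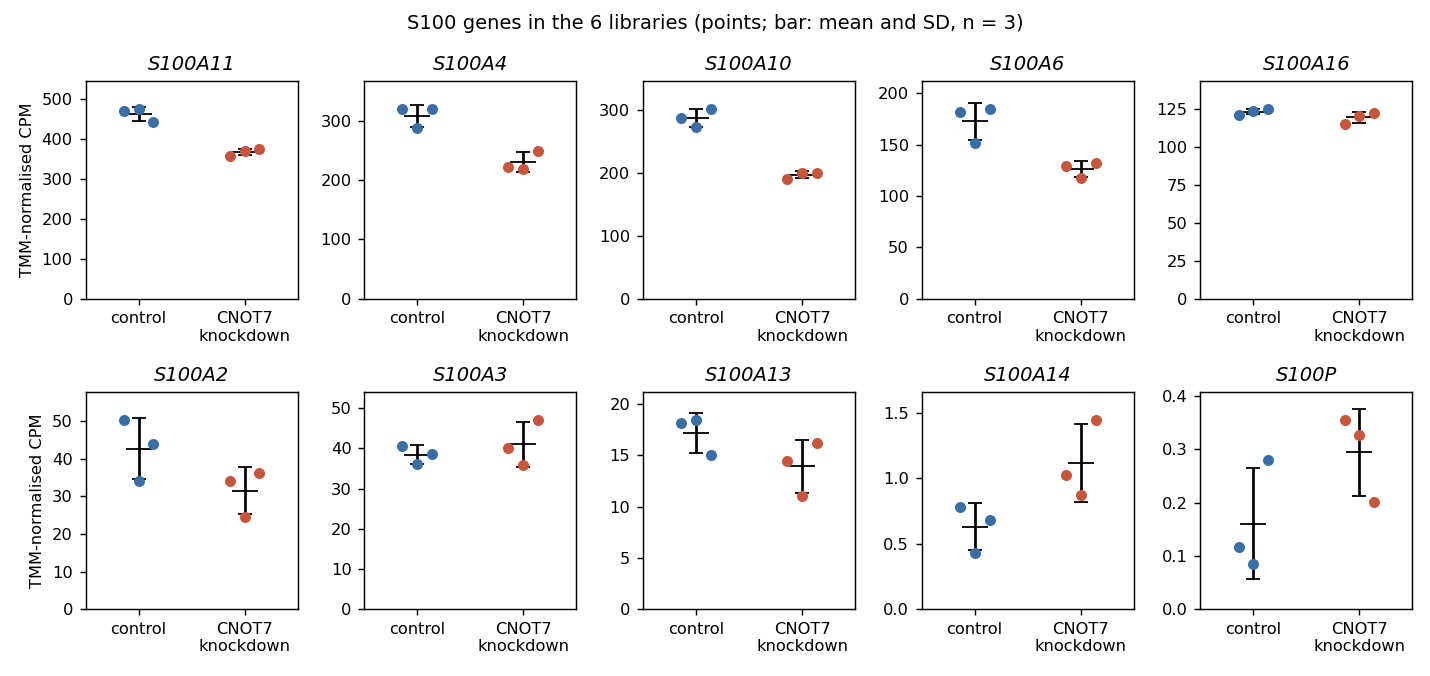
TMM-normalised CPM of each S100 gene in the 3 control (blue) and 3 CNOT7 knockdown (red) libraries, with the mean and SD of each group as bars and the vertical axis starting at 0 in every panel. S100A11, S100A4, S100A10 and S100A6 have all 3 knockdown points below all 3 control points, and S100A16 lies between 115 and 124 CPM throughout.

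S100A10 had the largest estimated fall among the S100 genes called, but its 95% interval overlapped those of the others. Its protein, p11, has lost the ability to bind calcium, pairs with annexin A2 (ANXA2) in a stable complex at the plasma membrane and helps to capture plasminogen there. The gene (ENSG00000197747) spans bases 151982915 to 151994390 of chromosome 1 (GRCh38, reverse strand). It was measured at 286, 272 and 300.4 CPM in control replicates 1, 2 and 3 and at 190.4, 200.1 and 199.8 CPM in the knockdown replicates. All 3 knockdown libraries were well below the lowest control library. This gave a log2 fold change of -0.54, with a standard error of 0.0540 and a 95% interval from -0.65 to -0.43. By the quasi-likelihood test of edgeR, adjusted over all genes by the Benjamini-Hochberg method, p was 1.36e-06.

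S100A11 (ENSG00000163191), which binds annexin A1 and takes part in the repair of damaged membranes, lies next in the cluster on the same strand, from 152032506 to 152047907. It was at 470.2, 474 and 443 CPM in control and at 359, 371 and 374 CPM in knockdown libraries. The groups did not overlap, and the spread between replicates was the smallest among the genes that fell, with a coefficient of variation of 3.69% in control and 2.24% in knockdown libraries. The fall was -0.33 on the log2 scale (standard error 0.0499, adjusted p = 1.07e-04, edgeR).

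S100A6 and S100A4 lie on the reverse strand with S100A5 between them, and 1486.7 kb with the skin barrier genes separate S100A11 from S100A6. S100A4 (ENSG00000196154, 153543613 to 153550136) encodes metastasin, which binds non-muscle myosin and is linked to cell movement. Its level was 319, 287 and 319 CPM in control and 222, 219 and 249 CPM in knockdown libraries, without overlap. This was a log2 change of -0.42 (standard error 0.0612, adjusted p = 6.82e-05, edgeR). S100A6 (ENSG00000197956, 153534599 to 153536244) encodes calcyclin, which binds the ubiquitin ligase adaptor CACYBP and annexin A11. It went from 182, 151 and 184 CPM to 129, 118 and 133 CPM, again without overlap. Its log2 fold change was -0.45 (standard error 0.0718, adjusted p = 1.83e-04, edgeR). In both genes the libraries numbered 2 were the lowest of their group.

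S100A2 (ENSG00000196754, 153561108 to 153567890), best known from keratinocytes, had the least certain fall. Its level was 50.3, 34.1 and 43.8 CPM in control and 34.03, 24.5 and 36.1 CPM in knockdown libraries. Control replicate 2 lay below knockdown replicate 3 and next to knockdown replicate 1, so the groups overlapped. Its log2 fold change came to -0.44 (standard error 0.131, 95% interval -0.72 to -0.16, adjusted p = 0.0207, edgeR). The call was lost with DESeq2 (adjusted p = 0.155) and when control replicate 1 (0.0835), control replicate 3 (0.0587) or knockdown replicate 2 (0.0537) was left out, with log2 fold changes from -0.45 to -0.29 in these fits. The adjusted p of S100A2 lay between 9.45e-08 and 0.155 in the 14 alternatives.

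**Figure D2:**
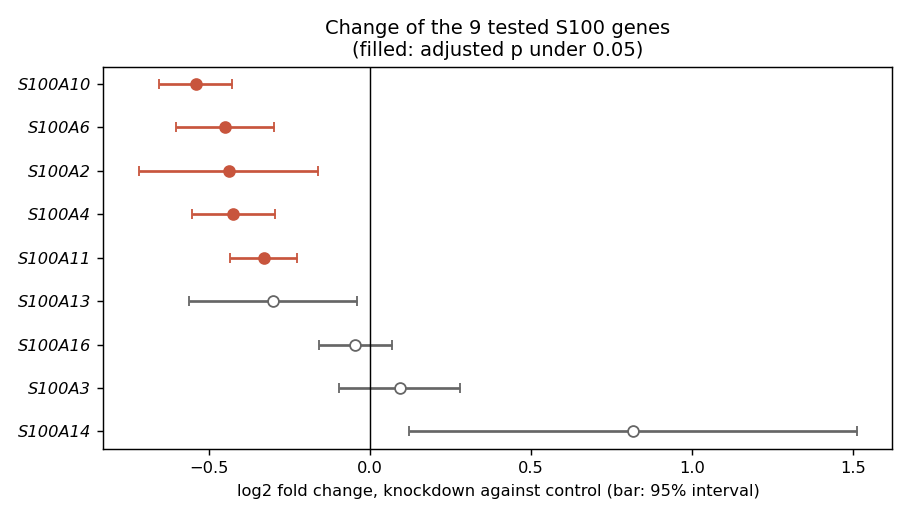
Log2 fold change of each tested S100 gene, knockdown against control, on the horizontal axis, with the 95% interval from edgeR as a bar and filled points for an adjusted p-value under 0.05. The 5 filled points lie between -0.54 and -0.33, S100A16 and S100A3 lie near 0, and the interval of S100A14 runs from 0.12 to 1.51.

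The other S100 genes of the cluster gave no call. S100A16 (ENSG00000188643, 153606886 to 153613145), a broadly expressed member with a single working calcium loop, was the steadiest. It was at 121, 123 and 124 CPM in control and at 115, 120.4 and 122 CPM in knockdown libraries. Its log2 fold change was -0.05 with a 95% interval from -0.16 to 0.07 (adjusted p = 0.593, edgeR). The sign turned when the trend with abundance was removed (0.0072).

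S100A3 (ENSG00000188015, 153547329 to 153549372), a zinc-binding protein of the hair cuticle, lies within the span of S100A4 on the same strand, without shared exonic bases. It was at 40.6, 36.0 and 38.7 CPM in control and at 40.1, 35.8 and 47.0 CPM in knockdown libraries. The groups overlapped, and the log2 fold change was 0.09 (95% interval -0.09 to 0.28, adjusted p = 0.493, edgeR). Without knockdown replicate 3, its highest library, the log2 fold change was -0.02.

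S100A13 (ENSG00000189171, 153618787 to 153631360) assists the export of FGF1 and interleukin 1 alpha, which lack a signal peptide. It was at 18.1, 18.4 and 15.0 CPM in control and at 14.4, 11.1 and 16.3 CPM in knockdown libraries, with control replicate 3 below knockdown replicate 3. The estimate was -0.30 on the log2 scale (standard error 0.124, adjusted p = 0.0855, edgeR). Of 14 alternatives, 4 gave a call, namely no filter on low counts (adjusted p = 0.0190), a term for the replicate number (0.0120), and leaving out control replicate 3 (0.0497) or knockdown replicate 3 (0.0159). Without knockdown replicate 2, its lowest library, the estimate was -0.16 (adjusted p = 0.291), and without both libraries numbered 2 it was -0.11 (adjusted p = 0.4996). Of its exonic bases, 24.2% are shared with AL162258.1 on the same strand and 10.6% with S100A1 on the opposite strand, so that its count is uncertain.

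S100A14 (ENSG00000189334, 153614255 to 153616986), an epithelial member that binds AGER, was scarce, with 20, 10 and 17 counts in control and 29, 24 and 43 counts in knockdown libraries. In CPM this was 0.778, 0.430 and 0.678 against 1.03, 0.870 and 1.44, so that every knockdown library lay above every control library, as did 20.6% of all genes tested. The log2 fold change of 0.82 (standard error 0.329) did not pass the test (adjusted p = 0.0796, edgeR), nor did it in any of the 14 alternatives (0.0531 to 0.294).

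S100P (ENSG00000163993) lies on the forward strand of chromosome 4 from 6693069 to 6697170. Its protein binds ezrin and AGER and is raised in many tumours of the gut and pancreas. In these cells it was near the limit of detection, with 3, 2 and 7 counts in control and 10, 9 and 6 counts in knockdown libraries, 12 against 25 in all. It was removed by the filter on low counts and has no place in the 9 genes tested. At 0.161 ± 0.104 CPM in control and 0.294 ± 0.0815 CPM in knockdown libraries (SD, n = 3), the groups overlapped, and a two-sided exact permutation test gave p = 0.2, where 3 against 3 libraries cannot go below 0.1. Without the filter, edgeR put the log2 change at 0.82, with a standard error of 0.675 and an adjusted p of 0.550. A change of S100P was not detectable at this depth, and its contrast with the cluster was not tested.

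Without overlap between the groups were 4 genes on the lower side (S100A4, S100A6, S100A10 and S100A11), against 18.2% of all genes tested, and S100A14 on the higher side. The remaining 4 tested genes overlapped. Ratios of counts within a library, which do not depend on the scaling, showed the unequal change inside the cluster. For S100A10 against S100A16, chosen after the values were seen and given without a test, the ratio was 2.37, 2.21 and 2.42 in control and 1.66, 1.66 and 1.64 in knockdown libraries. Between S100A4 and S100A3, which share one stretch of the chromosome, it was 7.86, 7.97 and 8.25 in control and 5.53, 6.12 and 5.30 in knockdown libraries.

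Replicates of one group differed more for some S100 genes than for others. The coefficient of variation in control libraries ran from 1.44% for S100A16 to 19.1% for S100A2 among genes above 20 CPM. Against its group mean on the log2 scale, S100A2 was at -0.31 in control replicate 2 and at -0.35 in knockdown replicate 2, and S100A6 was at -0.18 and -0.10 in the same libraries. S100A14 (-0.44 and -0.30, at low counts), S100A4 (-0.10 and -0.07) and S100A3 (-0.09 and -0.18) were also lowest there, whereas S100A11 was at 0.04 and 0.01. These libraries had the highest mitochondrial share of counts in their groups, 6.88% in control replicate 2 and 7.40% in knockdown replicate 2, against 6.36% to 6.88% in the other four, and its part in the result was not tested. With both left out, a setting chosen after the data were seen, the same number of S100 genes, 5, was called lower. Over all genes, 2518 of 17782 were called lower in that fit.

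**Figure D3:**
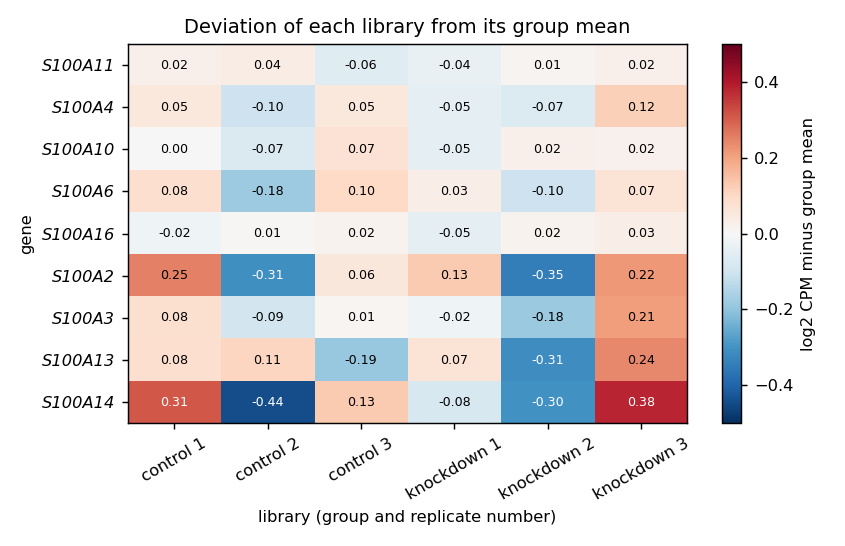
Deviation of each library (columns) from the mean of its own group, in log2 CPM, for the 9 tested S100 genes (rows, by control level), with blue for below and red for above the mean. S100A14, S100A2, S100A6, S100A4 and S100A3 are lowest in the libraries numbered 2 of both groups, with -0.44 and -0.30 for S100A14 and -0.31 and -0.35 for S100A2, and S100A11 and S100A16 are between -0.06 and 0.04.

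The start regions of the genes were compared because 5 of them fell together. RefSeq (GRCh38.p14) gave at least one start for all 10 genes, and the 250 bases before each were searched on both strands for the TATA box letters TATAAA, for the GC box letters GGGCGG, for the AP-1 site letters TGANTCA and for the TEAD site letters GGAATG. In the S100 genes no match of one motif overlapped a match of another. The 10 genes have 14 such windows. The GC box letters were in 6 of these 14 (42.9%), against 42.6% of all 35116 RefSeq windows of this length. TATAAA was in 3 (21.4%, against 10.7%), TGANTCA in 2 (14.3%, against 6.6%) and GGAATG in 1 (7.1%, against 11.9%). None of the 4 motifs was shared by all 5 genes that fell. The windows of S100A10, S100A4 and S100A2 are shown because these genes fell and differ in motif, and that of S100P as the contrast, each 5′ to 3′ on the gene's own strand with motif matches in capitals. S100A10 (chr1:151993860-151994109, reverse strand) has GGGCGG 167 bases before the start, S100A4 (chr1:153545807-153546056, reverse strand) has TATAAA 31 bases before it, S100A2 (chr1:153565845-153566094, reverse strand) has TGANTCA 52 bases before it, and S100P (chr4:6693628-6693877, forward strand) has TATAAA 28 bases before it. A second RefSeq start of S100A2 held no match.
S100A10: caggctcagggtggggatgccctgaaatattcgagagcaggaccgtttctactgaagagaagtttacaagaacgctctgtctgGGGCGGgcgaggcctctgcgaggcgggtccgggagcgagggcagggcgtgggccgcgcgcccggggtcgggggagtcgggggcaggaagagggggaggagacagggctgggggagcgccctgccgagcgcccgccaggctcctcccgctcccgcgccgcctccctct
S100A4: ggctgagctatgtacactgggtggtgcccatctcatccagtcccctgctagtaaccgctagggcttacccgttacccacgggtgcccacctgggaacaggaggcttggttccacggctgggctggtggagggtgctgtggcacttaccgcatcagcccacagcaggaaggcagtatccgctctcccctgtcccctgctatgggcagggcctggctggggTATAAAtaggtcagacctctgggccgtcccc
S100A2: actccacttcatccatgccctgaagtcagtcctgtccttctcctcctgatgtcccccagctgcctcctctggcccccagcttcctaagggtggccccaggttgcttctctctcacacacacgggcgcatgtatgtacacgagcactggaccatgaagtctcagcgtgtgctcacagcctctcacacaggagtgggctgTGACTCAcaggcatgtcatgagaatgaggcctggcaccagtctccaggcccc
S100P: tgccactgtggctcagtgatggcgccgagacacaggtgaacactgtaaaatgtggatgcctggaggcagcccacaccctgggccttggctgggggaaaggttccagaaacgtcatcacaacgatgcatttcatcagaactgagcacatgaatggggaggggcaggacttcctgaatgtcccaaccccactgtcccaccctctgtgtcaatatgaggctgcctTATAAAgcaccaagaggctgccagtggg

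The S100A10 window is the richest in G and C of the 4, with 71.2%, against 62.8% for S100A4, 59.2% for S100A2 and 55.6% for S100P. TATAAA was present before S100A4, which fell, before S100A13, which was not called, and before S100P, which could not be tested. GGGCGG was present before S100A10, S100A11 and S100A6, which fell, and before S100A3, S100A13 and S100A16, which were not called. TGANTCA was present before S100A2, which fell, and before S100A3, which was not called. A match describes letters and not a bound factor.

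Genes around the S100 genes moved both ways. In the region from 500 kb before the first to 500 kb after the last S100 gene of the cluster, 37 other genes were tested, of which 5 were lower (13.5%, against 11.9% of all genes), 2 were higher (5.4%, against 13.3%) and 30 were not called. Their median log2 fold change was -0.10, against -0.33 for the 9 tested S100 genes and 0.0039 for all genes. Near S100A10, the antisense gene AL450992.1, which runs from 151994531 into the span of S100A11 on the opposite strand, went from 2.87 ± 0.622 to 1.43 ± 0.768 CPM (SD, n = 3, log2 fold change -1.01, adjusted p = 0.0172, edgeR). TCHH, which encodes trichohyalin, a skin protein with an S100-like start, fell from 6.03 ± 0.574 to 3.50 ± 0.241 CPM (log2 fold change -0.79, adjusted p = 5.73e-04, edgeR). Of the 7 genes for such fused proteins, FLG and HRNR were also tested and were not called, and RPTN and CRNN had no count. On the far side of the cluster, SNAPIN, of vesicle fusion, ILF2, which binds double-stranded RNA, and INTS3, of the Integrator complex, had log2 fold changes of -0.49, -0.32 and -0.25. PRR9, which lies between S100A11 and S100A6, was scarce and rose. It had 4, 15 and 11 counts in control and 44, 38 and 26 counts in knockdown libraries. The log2 fold change was 1.63 (standard error 0.401, adjusted p = 0.00635, edgeR). Within 500 kb of S100P, 13 other genes were tested, with a median of -0.07. Of these, 2 were higher (SORCS2 and PPP2R2C, 15.4%, against 13.3% of all genes). Another 3 were lower (KIAA0232, CCDC96 and TADA2B, 23.1%, against 11.9%).

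**Figure D4:**
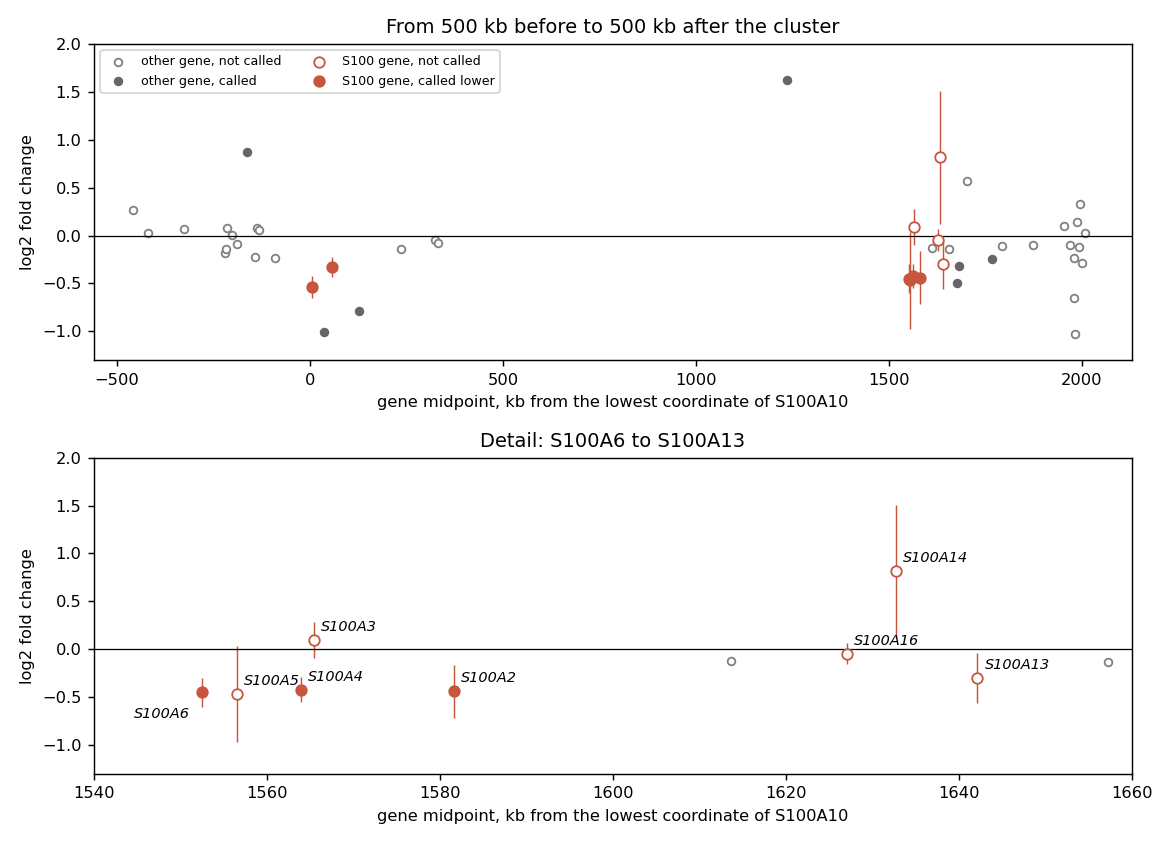
Log2 fold change of tested genes against the midpoint of each gene in kb from the lowest coordinate of S100A10, for the whole region (top) and for the stretch from S100A6 to S100A13 (bottom), with S100 genes in red with 95% intervals, other genes in grey, and filled points for an adjusted p-value under 0.05. S100A10 and S100A11 on the left and S100A6, S100A4 and S100A2 on the right lie between -0.54 and -0.33, with S100A3 at 0.09 among them.

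Other S100 genes were scarce or absent. Of 11 further family members, 6 had any count and only S100A5 could be tested. S100A5, which lies between S100A6 and S100A4, had 37, 53 and 46 counts in control and 34, 39 and 41 counts in knockdown libraries, a log2 fold change of -0.47 (95% interval -0.97 to 0.04, adjusted p = 0.170, edgeR). S100A1 was at 4 to 7 counts in all libraries. S100A9, a subunit of calprotectin in neutrophils, had 1, 7 and 0 counts in knockdown libraries and 0 in control libraries, and its partner S100A8 had 0 in all 6.

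Genes for proteins that S100 proteins bind were examined next, from a list of 22 drawn up by their known binding. The list was written with earlier results of these data known, so its share of calls is a description and not a test. All 22 were tested, 7 were lower (31.8%) and none was higher, against 11.9% and 13.3% of all genes, and the median log2 fold change was -0.12. ANXA2, the partner of S100A10, had the lowest adjusted p of the list. Its level was 2293, 2390 and 2346 CPM in control and 1399, 1457 and 1396 CPM in knockdown libraries, without overlap. The log2 fold change was -0.73 (standard error 0.0443, adjusted p = 3.90e-09, edgeR), and ANXA2 had 8.01, 8.79 and 7.81 counts per count of S100A10 in control and 7.35, 7.28 and 6.99 in knockdown libraries. AHNAK, a giant scaffold protein held at the membrane by the S100A10 and annexin A2 complex, fell from 1805 ± 52.2 to 1419 ± 45.1 CPM (SD, n = 3, log2 fold change -0.35, adjusted p = 2.82e-05, edgeR). PLAT, the plasminogen activator that the same complex is known to bind, fell from 25.6 ± 1.60 to 15.4 ± 0.438 CPM (log2 fold change -0.74, adjusted p = 5.26e-06, edgeR).

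ANXA1, the partner of S100A11, was scarce and fell furthest in this list, from 6.70 ± 0.806 to 3.09 ± 1.36 CPM (SD, n = 3, log2 fold change -1.12, standard error 0.228, adjusted p = 0.00148, edgeR). EZR, for ezrin, which links actin to the membrane and binds S100P, fell from 266 ± 5.62 to 189 ± 3.55 CPM (SD, n = 3, log2 fold change -0.49, adjusted p = 1.72e-06, edgeR). MYH9, the myosin heavy chain bound by S100A4, had a log2 fold change of -0.25 (adjusted p = 0.00227) and NCL, for nucleolin, of -0.19 (adjusted p = 0.00611), and NCL lost the call once the trend with abundance was removed (adjusted p = 0.0513). The partners of S100A6 were not called, with log2 fold changes of -0.07 for CACYBP, -0.15 for ANXA11 and 0.13 for SUGT1. Also not called were IQGAP1 (-0.06) and S100PBP (-0.06), which bind S100P, and the receptors AGER (-0.02, 95% interval -0.54 to 0.50), TLR4 (-0.17) and BSG (0.05).

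Wider families of calcium-binding proteins were counted for comparison, from lists also written with earlier results of these data known. Of 13 annexin genes, 11 were tested and 4 were lower (36.4%, against 11.9% of all genes tested), namely ANXA2, ANXA1, ANXA3 (-0.20) and ANXA8L1 (-2.02). None was higher, and the median was -0.15. ANXA1, ANXA2, ANXA5, ANXA6 and ANXA11 are also in the list of partners, so the 2 counts are not independent. ANXA8L1, a near copy of ANXA8 whose reads are hard to assign, had 17, 16 and 10 counts in control and 6, 2 and 4 in knockdown libraries. Without control replicate 2 the number of annexins lower was 7, while calls over all genes went from 4424 to 4151. Of 34 genes for other EF-hand proteins, 32 were tested, 6 were lower (18.8%, against 11.9%) and 5 were higher (15.6%, against 13.3%), with a median of -0.03. CALM2, which encodes the calcium sensor calmodulin, fell (log2 fold change -0.46), and CALM3, which encodes the same protein, rose (0.34, standard error 0.0550, adjusted p = 2.19e-04, edgeR). CAPNS1, the small subunit of the calpain proteases, fell by 0.48 on the log2 scale, and HPCAL1, a neuronal calcium sensor gene, rose by 0.36. NCALD, of the same sensor family, fell by 0.92. Without control replicate 3, 7 of these EF-hand genes were called, 2 higher and 5 lower, while calls over all genes fell to 3030.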

How the data were processed

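The authors deposited raw counts per gene for each library without normalization, with a gene length in bases that equals the exonic length in GENCODE release 29 for the S100 genes. The submitters' processing notes name CASAVA 1.8, fastp, HISAT2 2.0.5, featureCounts 1.5.0-p3, DESeq2 1.20.0 and the build GRCh38, whereas strandedness and filters are not given in the sources used here. Groups and replicate numbers came from the labels. The number of unused sample columns was 0.

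The deposited counts went into edgeR 4.0.16 under R 4.3.3. The filterByExpr function kept 17574 of 58735 genes, TMM gave the scaling, and knockdown was compared with control by the quasi-likelihood test over all genes, with Benjamini-Hochberg adjusted p-values and a threshold of 0.05. Standard errors were taken as |log2 fold change| / sqrt(F). The depth of 23788451 to 29104872 counts and 3 libraries per group set the precision that these errors show. Replicates differed by more than counting noise (chi-square per degree of freedom 3.20 to 10.8). The members and lists were chosen with earlier results of these data known. Every member was named, and for each list its called genes up to the 6 with the lowest adjusted p, with the partners tied to single S100 proteins. AL450992.1, FLG, HRNR, RPTN, CRNN, NCL, SUGT1, TLR4 and BSG fall outside this rule and were chosen after their values were seen. Some genes of the lists are counted but not reported here by name.

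Alternatives were DESeq2 1.42.0, RLE factors, no filter, a replicate block, a minimum of 10 counts per library, removal of trends with abundance (cyclic loess, limma 3.58.1) or gene length (loess, span 0.3), and leaving out each library in turn or, chosen after the data were seen, both libraries numbered 2. The fits were tested on simulated data. Promoters and exons were read with Python 3.11.15, and plots were drawn with matplotlib 3.10.9.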

Additional observations from a re-analysis of the deposited data

How the results depend on the processing

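S100A10, S100A4, S100A6 and S100A11 stayed lower and past the threshold in all 14 alternatives, with log2 fold changes from -0.59 to -0.48, -0.49 to -0.36, -0.54 to -0.39 and -0.36 to -0.26. The number of S100 genes called was between 4 and 6, while calls over all genes ran from 3030 to 6508. S100A2 lost its call in 4 alternatives and S100A13 gained one in 4. The log2 fold change of S100A16 turned to 0.0072 with the trend with abundance removed, and that of S100A3 to -0.023 without knockdown replicate 3, within a range up to 0.18 with 1 library left out. The cause was not tested. Removing the trend with gene length moved no call among the S100 genes. The log2 ratio of S100P means was 0.87, and 1.54 without control replicate 3.

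Libraries with the same number in both groups share only that number. The deviations of same-numbered libraries from their group means correlated at 0.023, 0.153 and -0.015 across genes, and not every library correlated best with its own number. With the replicate block, calls rose from 4424 to 6508 of 17574 genes. They then covered 9 of 11 annexins, 13 of 22 partners and receptors and 18 of 32 other EF-hand genes. Among neighbours on chromosome 1 they covered 11 of 37, and among S100 genes 6 of 9. With 1 library left out, 17796 to 18077 genes were tested and the calls were 3030 to 4542 over all genes. They covered 3 to 7 of 11 annexins and 7 to 15 of 32 or 33 other EF-hand genes. For the 2 scarcest genes, S100A14 and S100P, the counts limit what could be detected.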
